A study of Arabidopsis thaliana with 69 samples.

Results

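miR161.1 and miR161.2 are overlapping miRNAs cut from the same Arabidopsis thaliana precursor, MIR161 (AT1G48267), and they are described here together with 7 transcripts that encode pentatricopeptide repeat (PPR) proteins: AT1G62910, AT1G62930, AT1G63080, AT1G63130, AT1G63150, AT1G63330 and AT2G41720. The pair of miRNAs was taken from the 427 mature miRNAs, grouped into 313 families, that the small RNA tables list. The 7 transcripts were chosen by name with earlier results of these data known, and every miR161.1 or miR161.2 site listed in them was kept. That gave 12 of the 43 miR161 sites and of the 1735 cleavage sites of any miRNA, with 5 sites for miR161.1 and 7 for miR161.2.

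The series holds 69 libraries: 33 of small RNA sequencing (sRNA-seq), 33 of nanoPARE, which sequences the 5′ ends of RNA fragments and so finds where a transcript was cut, and 3 of mRNA-seq. Wild-type embryos were of the Col-0 accession at 8 stages, which were preglobular and globular, then early and late heart, early and late torpedo, bent cotyledon and finally mature green, with 3 sRNA-seq and 3 nanoPARE libraries per stage. The same numbers were made from dcl1-5 globular embryos, and the 3 mRNA-seq libraries come from dcl1-5 globular embryos alone. The dcl1-5 allele disrupts DICER-LIKE1, the enzyme that cuts most plant miRNAs from their precursors. Because dcl1-5 embryos die, they were picked by their abnormal morphology from siliques of self-fertilised dcl1-5/+ plants, so their genotype was read from their shape. The nanoPARE set also has 3 libraries each from roots and shoots of xrn4-5 seedlings, which lack an exoribonuclease that degrades cleaved transcripts and carry functional DCL1. Single sRNA-seq libraries represent leaf, floral bud and 50, 5, 1 and 0.5 ng of bent cotyledon RNA. Each embryonic replicate was a pool of embryos collected separately, so the spread between replicates covers both the embryos and the library preparation. Bent cotyledon samples were an exception in the paper, which used RNA of the other stages for mRNA-seq as well. At bent cotyledon, stage and RNA source therefore cannot be told apart, and input amounts of its replicates are not labelled.

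A plant miRNA guides an ARGONAUTE protein to a transcript with nearly complementary sequence, and the transcript is then cut opposite the middle of the miRNA. PPR proteins are a large plant family that bind RNA in mitochondria and chloroplasts and act in the processing, editing, splicing and translation of organelle transcripts. The miR161 pair is known in Arabidopsis for targeting a young, rapidly diversifying clade of PPR genes. Members of this clade include RPF3 (AT1G62930) and RPF6 (AT1G63130), which act in trimming the 5′ ends of mitochondrial mRNAs. Other small RNAs are known to act on PPR transcripts too, among them miR400, miR158 and the trans-acting siRNAs that follow cleavage by miR173.

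The mature sequences show why these miRNAs are kept apart, since each has its own seed although they share most of their bases. Both are on the plus strand of chromosome 1 (TAIR10.1 assembly), and capitals mark the seed, bases 2 to 8.
miR161.1, chr1:17825731-17825751: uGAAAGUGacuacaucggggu
miR161.2, chr1:17825722-17825742: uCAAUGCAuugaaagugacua
MIR161, chr1:17825722-17825751: tcaatgcatTGAAAGTGACTAcatcggggt
The last line is the genomic stretch that covers both, with capitals on the 12 bases they share. miR161.1 starts 9 bases downstream of miR161.2, so the end of miR161.2 is the start of miR161.1. The seeds are equal at only 3 of 7 positions.

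The target transcripts carry one stretch of coding sequence that pairs with both miRNAs in overlapping registers. It is shown for each gene because the bases that differ between these stretches lie in different parts for the 2 miRNAs. Each window has 30 bases on the strand of the transcript, 5′ to 3′, with bases 1 to 21 opposite miR161.1 and bases 10 to 30 opposite miR161.2, and capitals mark bases that do not form a Watson-Crick pair (mismatches and G:U pairs).
AT1G62910, chr1:23300033-23300062, plus strand: aTccAAatgtagtcactttcaGCgcattga
AT1G62930 (RPF3), chr1:23307498-23307527, plus strand: aTccAAatgtagtcactttcaGCgcattga
AT1G63130 (RPF6), chr1:23413821-23413850, plus strand: aTccAAatgtagtcactttcaGCgcattga
AT1G63080, chr1:23389780-23389809, minus strand: aTccAAatgtagtcactttcaaCTcattga
AT1G63150, chr1:23420372-23420401, plus strand: accccAatgtTgtTactttcaatgcattga
AT1G63330, chr1:23490594-23490623, plus strand: acccTAatTtagtcacGttcaatgcattga
AT2G41720 (EMB2654), chr2:17405523-17405552, minus strand: aGccAAatgtTgtTacttAcaatgcattga
The windows of AT1G62910, AT1G62930 and AT1G63130 were identical. Their bases without a Watson-Crick pair, 3 mismatches and 2 G:U pairs, lay in 2 places. These were the 5′ end of the window, opposite the 3′ part of miR161.1, and the bases opposite the last base of the miR161.2 seed and the base after it. Their pairing with the seed of miR161.1 was complete, as was that of AT1G63080. AT1G63150, AT1G63330 and AT2G41720 paired with miR161.2 over its whole seed and held bases without a Watson-Crick pair opposite the seed of miR161.1. The 6 genes on chromosome 1 lay within 191 kb of one another, and only AT2G41720 was elsewhere. EMB2654 is a chloroplast PPR protein needed for splicing of a plastid ribosomal protein transcript and for embryo development.

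The deposited pairing penalty, the Allen score, is 0 for perfect pairing and rises with mismatches. It was 2.5 for the miR161.1 sites of AT1G62910, AT1G62930, AT1G63080 and AT1G63130 and 4.0 for that of AT1G63150. For miR161.2 it was lowest in AT1G63330, at 1.0, followed by AT1G63150 at 2.5. AT1G62910, AT1G62930 and AT1G63130 had 3.0, AT1G63080 had 4.0 and AT2G41720 had 4.5. No site of miR161.1 was listed for AT1G63330 or AT2G41720.

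The precursor products differed in abundance by about 3 orders of magnitude. In embryonic libraries with 1665910 to 52374387 genome-matching reads, miR161.1 gave 3313039 reads of 20 to 24 bases over the 24 wild-type libraries and miR161.2 gave 1737. Levels are given as reads per 1000000 genome-matching reads (RPM), a scale on which 3 reads corresponded to between 0.0573 and 1.80 RPM. These floors and the intervals of counts cover counting error only, since reads amplified by PCR without molecular identifiers are not independent molecules.

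miR161.1 was the most abundant miRNA family at 6 of the 8 stages. Its level was 7319, 5344 and 4524 RPM in the 3 preglobular libraries and 4743, 6200 and 9133 RPM in the globular libraries. It was 5275, 6725 and 7496 RPM in early heart and 8721, 9922 and 9415 RPM in late heart embryos. The torpedo stages held the highest values, with 11754, 9666 and 8309 RPM in early torpedo and 8716, 13326 and 11160 RPM in late torpedo embryos. Libraries of neighbouring stages overlapped up to this point, except that every late heart library was above every early heart library. The level was then 9019, 7619 and 9231 RPM in bent cotyledon and 2842, 4940 and 4685 RPM in mature green embryos, whose libraries did not overlap. The order of the stage means, from lowest to highest (SD, n = 3), was mature green (4156 ± 1145 RPM), preglobular (5729 ± 1437), early heart (6499 ± 1128), globular (6692 ± 2236), bent cotyledon (8623 ± 876), late heart (9353 ± 603), early torpedo (9910 ± 1735) and late torpedo (11068 ± 2306). The late torpedo mean was 1.93-fold that of preglobular and 2.66-fold that of mature green embryos.

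miR161.1 varied over the stages (limma on log2(RPM + 1), F = 6.75, adjusted p = 0.000339), as did 54 of the 56 families tested, or 96.4%. Of the 7 steps between adjacent stages, only the last passed the test. From bent cotyledon to mature green, it fell by 1.09 on the log2 scale (standard error 0.26, adjusted p = 0.0016). At this step 26 families, or 46.4%, were lower and 3 were higher, and the median family changed by -0.88. Scaling moved this step: scaled to all miRNA reads the change was -0.56 (adjusted p = 0.0346), in edgeR -0.48 (adjusted p = 0.0296), and with the size factors of DESeq2 it was 0.37 in the other direction (adjusted p = 0.122), where the median family was at 0.44. The other 6 steps had log2 changes of -0.34 to 0.54 and adjusted p of 0.23 to 0.986, while in either direction 33.9%, 14.3%, 5.36%, 21.4%, 10.7% and 21.4% of families were called at these steps in order of age. Without replicate 1, the step from preglobular to globular was 0.61 (adjusted p = 0.0283), against 0.20 with all replicates.

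miR161.2 had another course over development. No read of it was counted in any preglobular library, where 3 reads over the 3 libraries correspond to 0.164 RPM. It was 0.991, 1.21 and 0 RPM in globular embryos, from 16, 21 and 0 reads. In the last of these libraries 3 reads correspond to 0.0573 RPM, so 0 reads in a library did not bound the level of the stage. It was 2.40, 0 and 0 RPM in early heart embryos, from 5 reads in all. Several early libraries thus held none, and no order among these stages can be read from so few reads. In late heart embryos it was 0.935, 0.885 and 0.682 RPM, from 9 to 13 reads each. It was 1.53, 4.99 and 2.10 RPM in early torpedo and 4.23, 5.73 and 3.17 RPM in late torpedo embryos. Bent cotyledon libraries held 9.25, 9.27 and 8.04 RPM, all above every earlier library. Mature green libraries held 3.98, 13.6 and 4.5 RPM, a range that includes the bent cotyledon values.

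The bent cotyledon mean of miR161.2, 8.85 ± 0.705 RPM (SD, n = 3), was 10.6-fold the late heart mean of 0.834 ± 0.134 RPM. Pooled over libraries, it was 54.3-fold the level of 3 reads over the preglobular libraries. That level covers counting error only and is no firm bound for the stage. Single libraries from measured amounts of bent cotyledon RNA were lower, at 2.71 RPM with 50 ng and no read with 5 ng, where 3 reads correspond to 0.661 RPM, under the late heart mean. The higher level at this stage thus rests on the 3 replicate libraries, and the parts of RNA source and library preparation in it were not tested. miR161.2 stayed under the minimum of 10 RPM in every stage mean and so was not among the 56 families. With a minimum of 1 RPM, it varied over the stages (limma, adjusted p = 4.8e-06 over 116 families, of which 100 were called). No single step between adjacent stages passed the test (adjusted p of 0.183 to 1).

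**Figure D1:**
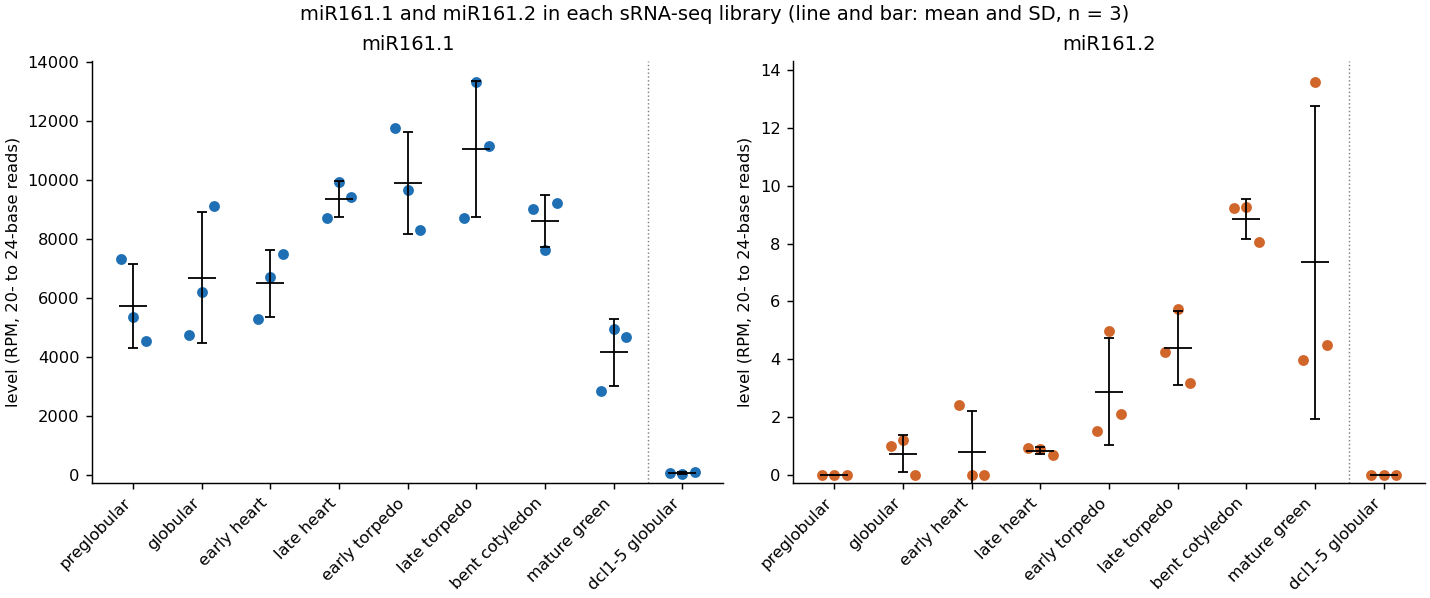
Level of miR161.1 (left) and miR161.2 (right) in each sRNA-seq library, in reads per 1000000 genome-matching reads on linear axes of different height; points are libraries, lines and bars the mean and SD of 3. miR161.1 is highest in late torpedo embryos (mean 11068 RPM), miR161.2 in bent cotyledon embryos (8.85 RPM), and dcl1-5 embryos lie near 0 for both.

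The balance between the miRNAs differed between stages in the replicate libraries. The ratio of the means of miR161.1 and miR161.2 was 9136 in globular, 8107 in early heart and 11213 in late heart embryos. It was 3449 in early torpedo, 2527 in late torpedo, 974 in bent cotyledon and 564 in mature green embryos. In preglobular embryos, where miR161.2 had no reads, it was 34988 against 3 reads over the pooled libraries. Against 3 reads in each library it was 25050, 10694 and 3092. These values cover counting error only and are no firm bounds. On the scale of log2 with 1 RPM added to each, the highest and lowest stage means were 3.36 apart (permutation test of the F statistic, p = 0.00027, 24 libraries). The p was 0.00205 to 0.0493 as each replicate number was left out in turn. Among the replicate libraries, bent cotyledon was the only stage whose 3 log2 ratios were all below those of the preceding stage. They were 9.78, 9.53 and 9.996 against 10.70 to 11.39 in late torpedo embryos, a difference of -1.24 (exact permutation p = 0.1, two-sided, the smallest that 3 against 3 allows). The single bent cotyledon libraries from 50 and 5 ng of RNA did not share this drop, since their log2 ratios of 11.81 and 12.90 were above every late torpedo library. Their ratios were 4903 and, against 3 reads, 11548, in the range of earlier stages. Bent cotyledon RNA was not shared with mRNA-seq as that of other stages was, so stage and RNA source cannot be told apart here. At the 6 other steps the exact permutation p was 0.2 to 1. In single libraries of other organs, the ratio was 2864 in leaf (20834.5 and 7.27 RPM, the latter from 5 reads) and 909 in floral bud (4404 and 4.84 RPM, from 14 reads).

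The read lengths of the pair differed as well. Of miR161.1 reads in wild-type embryos, 93.8% had 21 bases, 3.38% had 20 and 2.83% had 22. Of miR161.2 reads, 54.6% had 20 bases, 32.0% had 21 and 13% had 22, so that most reads were shorter than the annotated miRNA. In the libraries summed by stage, the share of 20-base reads of miR161.1 was 1.24% in preglobular, 1.64% in globular, 4.15% in bent cotyledon and 7.02% in mature green embryos. For miR161.2 the 20-base share was 0% in globular embryos, from 37 reads, and 31.3% in late heart, 53.0% in late torpedo, 54.6% in bent cotyledon and 60.5% in mature green embryos. Both miRNAs thus had their largest 20-base share in mature green embryos. The share of 21-base reads of miR161.1 was 94.5% in late heart and 91.2% in mature green embryos, the highest and lowest stage means (permutation test of the F statistic, p = 0.00407, 24 libraries). Mature green libraries had 90.8%, 92.8% and 90.0%. Without replicate 1 this p was 0.0654, and without replicate 3 it was 0.0862. For miR161.2 no such difference over stages was detected (permutation p = 0.976 over the 18 libraries with reads).

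**Figure D2:**
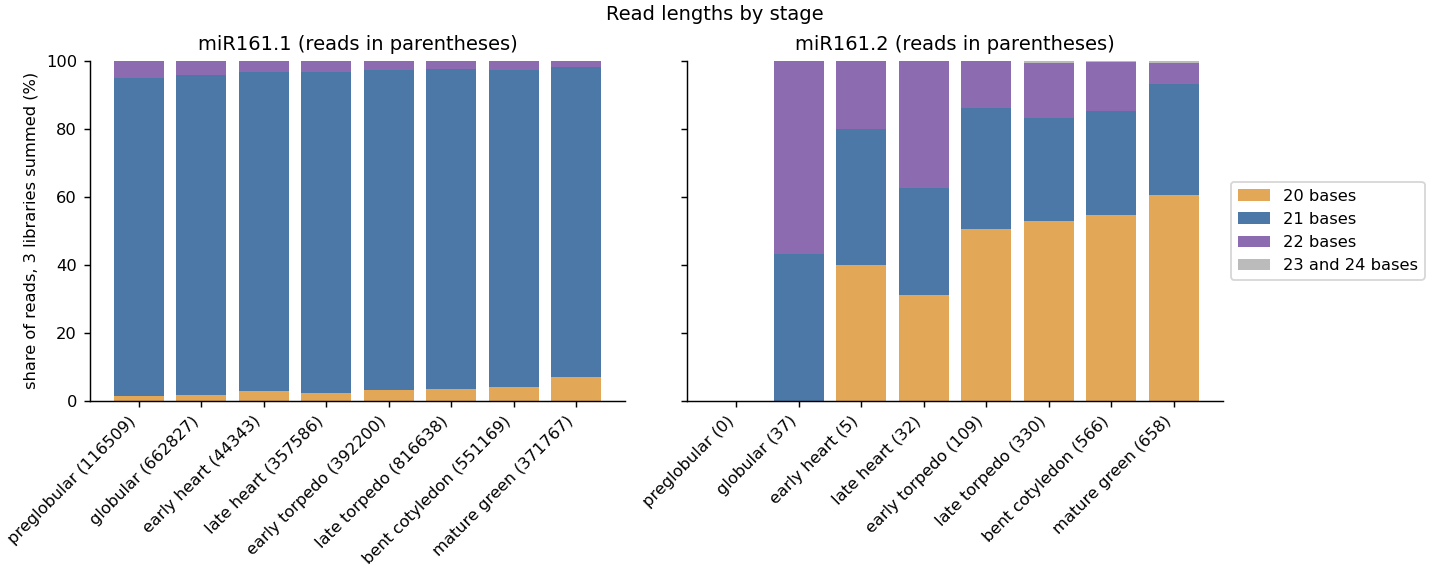
Share of reads of each length, in percent of the reads of the miRNA, with the 3 wild-type libraries of a stage summed; the number of reads is in parentheses under each bar. miR161.1 (left) is almost all 21 bases, whereas 20-base reads make up 54.6% of miR161.2 reads (right), and preglobular embryos have no miR161.2 read to plot.

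Among the 55 other families tested, the stage means of miR161.1 were most like those of miR863 (Pearson r = 0.971), miR173 (r = 0.968) and miR850 (r = 0.965), on log2(RPM + 1) over 8 stage means that share libraries and depth. The r with miR161.2 was 0.14. For miR161.2 the most similar were miR167 (r = 0.966), miR846 (r = 0.959) and miR156c-3p (r = 0.955). The family named miR173 here holds miR173-3p alone, with stage means from 1219 RPM in preglobular to 3100 RPM in early torpedo and 885 RPM in mature green embryos. The other arm, miR173-5p, which cuts TAS1 and TAS2 transcripts and so starts their siRNAs, was treated as a family of its own and had stage means of 0.200 to 13.1 RPM. The stage means of miR158a-3p ran from 450 RPM in preglobular to 6491 RPM in late torpedo embryos (miR158 over stages, adjusted p = 1.77e-10). miR400 had at most 0.10 RPM in any stage mean.

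DCL1 dependence was read from the globular stage. Expression of DCL1 itself was 0.0226, 0.0359 and 0.0268 TPM in the 3 dcl1-5 mRNA-seq libraries, from 4 to 5 reads each, with no wild-type mRNA-seq analysed here. miR161.1 was 44.1, 36.5 and 84.7 RPM in dcl1-5 embryos, where wild-type libraries had 4743, 6200 and 9133 RPM. The lowest wild-type library was 56.0-fold above the highest dcl1-5 library, so the groups were far apart. The mean fell by 121-fold, to 0.823% of the wild-type level (log2 change -6.94, standard error 0.44, adjusted p = 0.000128, limma). Of the 56 families tested, 40, or 71.4%, were lower and 0 were higher (0 at an unadjusted p under 0.05 too), with a median change of -3.16, and miR161.1 ranked 7 by its fall. Families were tested only where a wild-type stage mean reached 10 RPM, so a family high in dcl1-5 embryos alone could not enter. The counts and the median are thus in part set by that filter. In pooled embryos, fewer cells with a miRNA and less of it per cell cannot be told apart.

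The size of this change depended on the scaling. As a share of all miRNA reads, miR161.1 made up 25.4%, 26.4% and 26.1% in wild-type and 13.9%, 17.6% and 19.9% in dcl1-5 libraries. Scaled to all miRNA reads, its change was -0.61 (adjusted p = 0.0544), beside a median of -0.60 over the families. In edgeR the change was -1.41 (adjusted p = 0.00274, median -1.47) and in DESeq2 -0.46 (adjusted p = 0.079, median -0.22). Summed over all miRNAs, levels were 316, 207 and 426 RPM in dcl1-5 and 18665, 23459 and 35060 RPM in wild-type globular libraries. Scaling to all miRNA reads, edgeR and DESeq2 set each family against the others, so they remove a loss that most families share. Their values are therefore relative and do not measure the fall in RPM. The direction was the same under each scaling, while the size and the call were not.

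miR161.1 was still the family with the second highest level in dcl1-5 embryos, after miR845 at 73.2 RPM. Its read lengths, 94.0% of 21 bases, were close to those of wild type, at 94.3%. For miR161.2, no read was counted in the 3 dcl1-5 libraries, where 3 reads correspond to 0.0576 RPM over their pooled depth. The 37 wild-type globular reads came from 2 libraries, and replicate 3, the deepest, held none. With a minimum of 1 RPM, its log2 change was -0.71 (adjusted p = 0.178), so no difference was shown at this depth. In dcl1-5 embryos the ratio of the miRNAs was 956 against 3 reads over the pooled libraries. Against 3 reads in each library it was 443, 175 and 212. These values too cover counting error only.

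The cleavage sites of both miRNAs were examined in the nanoPARE tables, which list, for each library, predicted sites with reads at the expected position. Levels are in reads per 1000000 (RPM) at the cleavage position, and a site that a library does not list was taken as 0. The tables also give each listed site a p-value against its background, adjusted within the library. A listing is called significant here where that value is under 0.05. The libraries list 66 to 356 sites each. Their depth is not given in the sources used here, so an unlisted site sets no limit on its level.

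At least 1 of the 12 sites was listed in 20 of the 24 wild-type libraries, and every site was listed in at least 4. AT1G62910 and AT1G62930 were identical in sequence over the 50 bases downstream of both cleavage positions, and their levels were equal in all 33 libraries. Their reads cannot be told apart, and the values of AT1G62910 below stand for both. AT1G63130 differed from them at 1 of those 50 bases. It was identical to them over the first 38 bases after the miR161.1 position and the first 29 after the miR161.2 position. Reads that end before the differing base cannot be told apart, so levels of AT1G63130 may include reads of these genes.

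The miR161.1 site of AT1G62910, a gene of the RPF clade, was listed in 11 wild-type libraries and significant in each. It was 0.349, 0 and 0.341 RPM in globular, 0.188, 0.0797 and 0.206 RPM in late heart and 0.114, 0.0591 and 0.186 RPM in early torpedo embryos. No preglobular, late torpedo or mature green library listed it. In RPF6 (AT1G63130), the same site was listed in 9 libraries and was highest in early heart embryos, at 0, 0.915 and 0.674 RPM. The replicates of a stage thus differed by the presence or absence of the site as much as by its level. In AT1G63080 it was listed in 6 libraries, at 0.119 to 0.343 RPM, and in AT1G63150, whose miR161.1 pairing was poorest, in 4, at 0.130 to 0.368 RPM, only 1 of them significant. AT1G63080 and AT1G63150 encode PPR proteins of the same cluster.

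Sites of miR161.2 were listed more widely. That of AT1G63130 was listed in 16 wild-type libraries, with 0.325, 0.237 and 0.0875 RPM in globular and 0.339, 0.644 and 0.387 RPM in early heart embryos. It was 0.862, 0.625 and 0.302 RPM in late heart, 0.333, 0.399 and 0.576 RPM in early torpedo and 0.248, 0.0534 and 0.220 RPM in late torpedo embryos. 1 preglobular library had 0.130 RPM and no bent cotyledon or mature green library listed it, so that every library from globular to late torpedo held the site and few others did. That of AT1G62910 was listed in 15 libraries from preglobular to bent cotyledon, at 0.0442 to 0.334 RPM. Those of AT1G63080 and AT1G63150 were listed in 6 and 5 libraries, none before early heart.

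Levels did not follow the deposited pairing score. The site of AT1G63330, with the lowest Allen score, was listed in 6 wild-type libraries at 0.0856 to 0.218 RPM and was significant in all 6. Its 50 bases downstream of the cleavage position are identical to those of AT1G62590, whose site was listed in 8 at 0.0901 to 0.365 RPM, so reads of these genes cannot be told apart and the level of either alone is uncertain. The site of EMB2654 (AT2G41720), with the highest deposited score, was listed in 16 libraries and reached the highest values of the 12 sites. It was 2.51, 0.510 and 1.39 RPM in early heart, 2.13, 0.676 and 0.179 RPM in late heart and 0.239, 1.44 and 0 RPM in late torpedo embryos. A penalty recomputed from the windows printed above was 3.5 for AT2G41720 and 4.0 for AT1G63080, so which of them pairs worst depends on the scoring. For AT2G41720, only 4 of 16 listings were significant, and these were the 4 highest values. Levels of cleavage products also depend on how much transcript there is, and wild-type transcript levels were not analysed here.

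**Figure D3:**
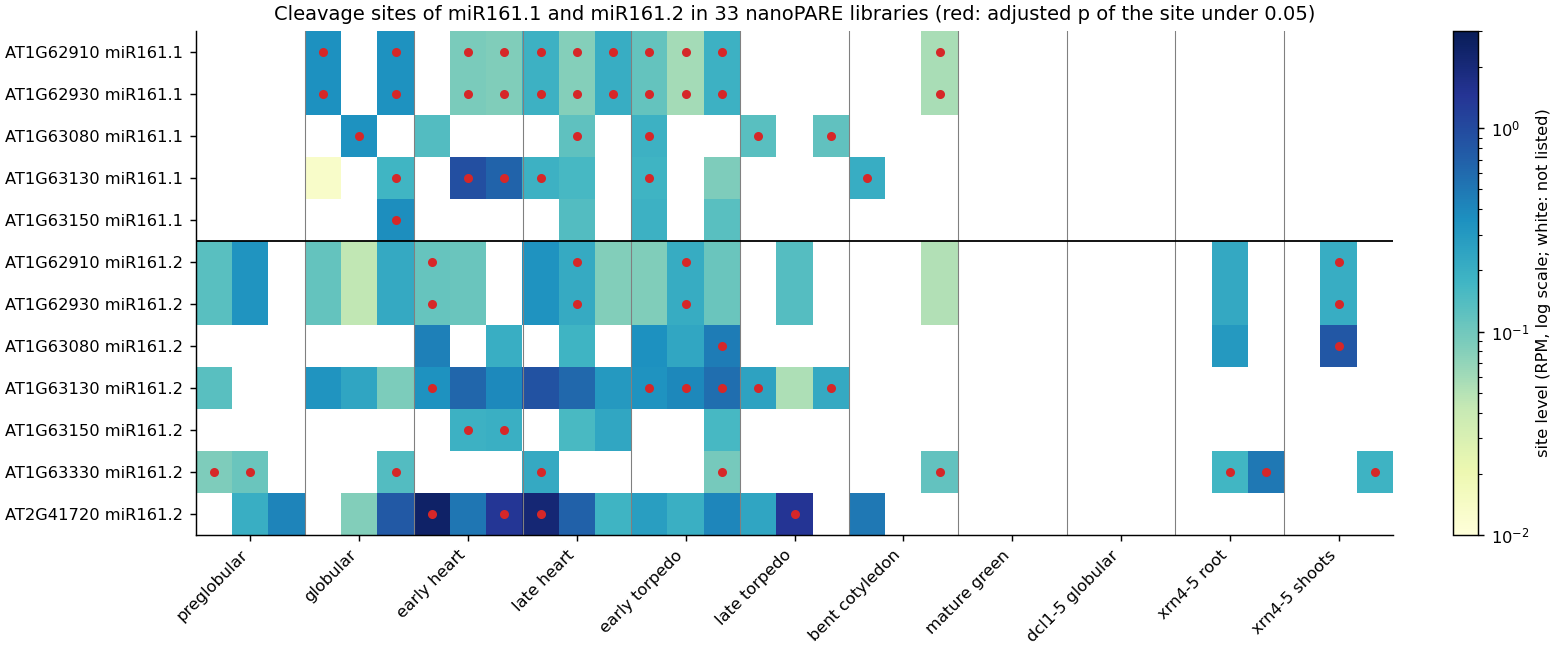
Level of each of the 12 cleavage sites (rows) in each of the 33 nanoPARE libraries (columns, 3 per group, replicates 1 to 3 from left to right), in RPM on a logarithmic colour scale; white cells are not listed and red dots mark an adjusted p of the site under 0.05. Both miR161.1 rows and miR161.2 rows are filled mainly from globular to early torpedo embryos, and the mature green and dcl1-5 columns are empty.

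Of the 12 sites, 1 was called in the test over stages (limma on log2(RPM + 1), filter of a level above 0 in at least 3 libraries), which called 43 of 616 sites, or 6.98%. This was the miR161.2 site of AT1G63130 (F = 5.03, adjusted p = 0.0106), with stage means of 0.0434 RPM in preglobular, 0.596 ± 0.281 RPM (SD, n = 3) in late heart and 0 in bent cotyledon embryos. Without replicate 1 its adjusted p was 0.113, and without replicate 2 it was 0.26. Without replicate 1, the miR161.1 site of the same gene was called instead (adjusted p = 0.0182). The other 11 sites had adjusted p of 0.109 to 0.862. Reads that may be shared with AT1G62910 and AT1G62930 limit the levels of AT1G63130 here too.

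Summed over the sites of each miRNA, with AT1G62910 and AT1G62930 counted once, the levels formed a hump over development. The miR161.2 sum was 0.346, 0.639 and 0.415 RPM in preglobular embryos, 3.41, 1.45 and 2.17 RPM in early heart and 3.54, 1.85 and 0.798 RPM in late heart embryos. It was 1.04, 1.04 and 1.81 RPM in early torpedo and 0.495, 0 and 0.170 RPM in bent cotyledon embryos. The miR161.1 sum was 0 in all 3 preglobular libraries, where the miRNA was at 4524 RPM or more. It was 0.362, 0.343 and 0.885 RPM in globular and 0.140, 1.01 and 0.757 RPM in early heart embryos. Its means were 0.361 ± 0.148 RPM in late heart, 0.376 ± 0.305 in early torpedo, 0.0832 ± 0.0723 in late torpedo and 0.0869 ± 0.105 in bent cotyledon embryos (SD, n = 3). Both sums were 0 in mature green embryos, where miR161.2 was near its highest level. These sums describe chosen sites and are given with no p.

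No mature green library listed any of the 12 sites, although each site was listed at an earlier stage. Among all sites listed at an earlier stage, 84.1% of 1437 were likewise absent from mature green libraries, so absence was common. Of sites listed in at least 5 earlier libraries, 65.1% of 347 were absent, and 11 of the 12 sites met that condition. Mature green libraries listed 131 to 135 sites each, fewer than any library from preglobular to late torpedo (172 to 356), and bent cotyledon libraries listed 137, 141 and 245. The part of this lower number of sites in the absence of the PPR sites was not tested.

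**Figure D4:**
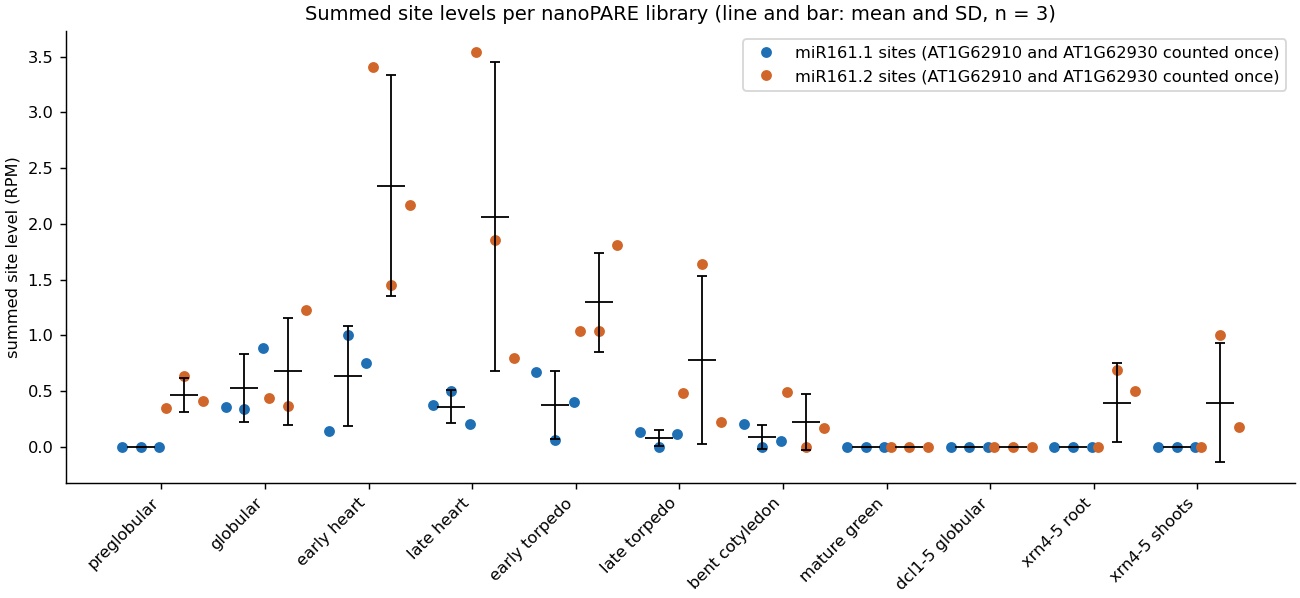
Summed level of the miR161.1 sites (blue) and the miR161.2 sites (orange) per nanoPARE library, in RPM, with AT1G62910 and AT1G62930 counted once; points are libraries, lines and bars the mean and SD of 3. The miR161.2 sum is highest in early heart (mean 2.34 RPM) and late heart embryos (2.06 RPM), and both sums are 0 in mature green and dcl1-5 embryos.

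Among the chosen sites, the rarer miRNA had the larger site signal. Over these sites, which hold more of miR161.2 than of miR161.1, the miR161.2 sum was higher in 20 of the 24 wild-type libraries. It was below the miR161.1 sum in 0, with means of 0.981 and 0.259 RPM. Other sites, of miR161.1 as in AT1G64583 and of miR161.2 as in AT1G63400, were left out, so these counts depend on the choice of genes. Within the genes that carry both sites, the miR161.2 sum was higher in 14 libraries, the miR161.1 sum in 5, and both were 0 in 5, with means of 0.452 and 0.259 RPM. In AT1G63130 the miR161.2 site was higher in 13 libraries and the miR161.1 site in 4 (means 0.240 and 0.108 RPM). In AT1G62910 these numbers were 9 and 7 libraries (means 0.0951 and 0.0730 RPM). They were 6 and 3 in AT1G63080 (means 0.0781 and 0.0435 RPM) and 5 and 2 in AT1G63150 (means 0.0389 and 0.0344 RPM). The ratio of means was thus largest in AT1G63130, at 2.22, and smallest in AT1G63150, at 1.13. With the reads behind each level unknown, no counting error can be set on these orders and ratios. Both sites of a transcript lie 9 bases apart, and whether a read near one position entered the background of the other is not given in the sources used here.

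By the authors' test, the order was the other way round. In the 5 genes with both sites, 34 of 41 listings of miR161.1 sites were significant, or 82.9%, and 15 of 57 listings of miR161.2 sites, or 26.3%. With AT1G62930 left out as a copy of AT1G62910, these were 23 of 30 (76.7%) and 12 of 42 (28.6%). Over all sites in wild-type libraries, 848 of 5673 listings were significant, or 14.9%. Listings of 1 site in several libraries are not independent, and no test was made of these shares. In 4 of the 5 genes the miR161.1 site had the lower Allen score, and the part of pairing in these shares was not tested.

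A site significant in at least 2 replicates of a stage was called high-confidence. Of the 43 miR161 sites, 12 reached this in at least 1 wild-type stage, and 8 of them were in the 7 PPR genes. Over all sites listed in wild-type embryos, 63 of 1483, or 4.25%, reached it. The 7 genes were chosen with earlier results of these data known, and each holds at least 1 of the 8 sites. Their share is therefore no support for these genes. The 8 comprised the miR161.1 sites of AT1G62910 and AT1G62930 (4 stages each, with reads that cannot be told apart), AT1G63080 and AT1G63130 (1 stage each) and the miR161.2 sites of AT1G63130 (2 stages), AT1G63150, AT1G63330 and AT2G41720 (1 stage each). Early heart embryos held 5 of the 8, early torpedo 3, globular, late heart and late torpedo 2 each, preglobular 1, and bent cotyledon and mature green 0. The other 4 were the miR161.1 site of AT1G64583 and the miR161.2 sites of AT1G63400, AT1G62590 and AT1G62914.

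The site in AT1G64583, which was not among the chosen genes, was listed in 13 wild-type libraries, more than any other miR161.1 site, and was significant in each. It had 0.698, 0.897 and 0.544 RPM in early heart and 0.671, 0.454 and 0.473 RPM in late heart embryos. It was called over stages with all replicates (F = 5.42, adjusted p = 0.00617), but not without replicate 1 (adjusted p = 0.449) or replicate 2 (adjusted p = 0.128). In AT1G63400, the miR161.2 site was listed in 12 wild-type libraries, including 1 mature green library at 0.333 RPM.

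In dcl1-5 embryos, none of the 12 sites was listed in any of the 3 libraries, while 10 were listed in at least 1 wild-type globular library. Among all 537 sites listed in wild-type globular embryos, 67.0% were not listed in dcl1-5, so the complete absence of a single site is not unusual. Over all 12 sites the level was 1.27, 0.750 and 2.67 RPM in the wild-type globular libraries and 0 in each dcl1-5 library. The dcl1-5 libraries listed 201, 177 and 66 sites, and the wild-type globular libraries 185, 330 and 247. Sites of miR173, given for comparison, summed to 39.5 to 67.2 RPM in wild-type and 0.514 to 1.35 RPM in dcl1-5 globular libraries.

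Of the 12 sites, 3 were above 0 in enough libraries to be tested, and they passed that filter through the wild-type libraries alone. The miR161.2 sites of AT1G62910 and AT1G62930 had a log2 change of -0.17 each (standard error 0.07, adjusted p = 0.130), and that of AT1G63130 had -0.28 (standard error 0.12, adjusted p = 0.125). None was called, where 16 of 124 sites, or 12.9%, were lower and 1 was higher. At these levels the added 1 RPM limits the log2 change.

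In xrn4-5 seedlings, where cleaved fragments last longer, only miR161.2 sites were listed, namely those of AT1G62910, AT1G62930, AT1G63080 and AT1G63330. None of the 5 miR161.1 sites was. Absence was common, since 72.8% of the 1483 sites listed in wild-type embryos, and 46.9% of the 371 listed in at least 5 libraries, were in no xrn4-5 library. The miR161.2 site of AT1G63330 was 0, 0.172 and 0.500 RPM in roots and 0, 0 and 0.182 RPM in shoots, and its highest root value was above every embryonic library. That of AT1G63080 was 0, 0.300 and 0 RPM in roots and 0, 0.796 and 0 RPM in shoots. The site of AT1G63330 was the only one with enough values for a test between the tissues, and it did not pass (log2 change in shoots against roots -0.19, standard error 0.18, adjusted p = 0.510). In that test 20 of 103 sites, or 19.4%, differed, and 36 did at an unadjusted p under 0.05. The miR161.1 site of AT1G64583 was listed in 1 root and 1 shoot library.

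Transcript levels of the PPR genes in dcl1-5 globular embryos, in transcripts per 1000000 (TPM), a scale that accounts for transcript length, spanned more than an order of magnitude. RPF6 (AT1G63130) was highest, at 14.6, 14.9 and 17.5 TPM. RPF3 (AT1G62930) followed with 7.21, 8.40 and 12.9 TPM, EMB2654 (AT2G41720) with 8.71, 6.20 and 10.11 TPM and AT1G62910 with 7.83, 6.20 and 7.44 TPM. The ranges of these last 3 genes overlapped, and only RPF6 stood above the others in every library. AT1G63150 had 5.28, 6.46 and 6.59 TPM and AT1G63080 had 4.38, 3.54 and 5.29 TPM. AT1G63330 was lowest, at 0.822, 0.808 and 1.07 TPM, apart from all others. In wild type, AT1G63130 and AT2G41720 had the most widely listed miR161.2 sites, in 16 libraries each. Those of AT1G62910 and AT1G62930 were listed in 15, and those of AT1G63080, AT1G63150 and AT1G63330 in 5 or 6. A relation of site listing to transcript level was not tested. How reads were divided between near-identical genes such as AT1G62910 and AT1G62930 makes their single levels uncertain. The mean levels lay between the percentiles 35.2 and 74.8 of the 27398 detected genes, whose median was 3.53 TPM.

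These levels have no wild-type mRNA-seq beside them here, so no effect of dcl1-5 on the PPR transcripts can be given. MIR161 (AT1G48267) was at 0 TPM in all 3 libraries. Embryo markers were detected in these libraries, with means of 27.3 TPM for WOX2, 9.85 for WOX8, 27.4 for WOX9, 80.1 for ATML1 and 234 for LEC1. The endosperm genes FIS2, PHE1, FWA and AGL62 had means of 0.319 to 1.88 TPM, and the seed coat gene BAN had 11.1 to 16.4 TPM with TT10 at a mean of 0.530. The mean of BAN, 13.5 TPM, was above that of WOX8. The part of seed coat RNA in the PPR levels was not tested.

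**Figure D5:**
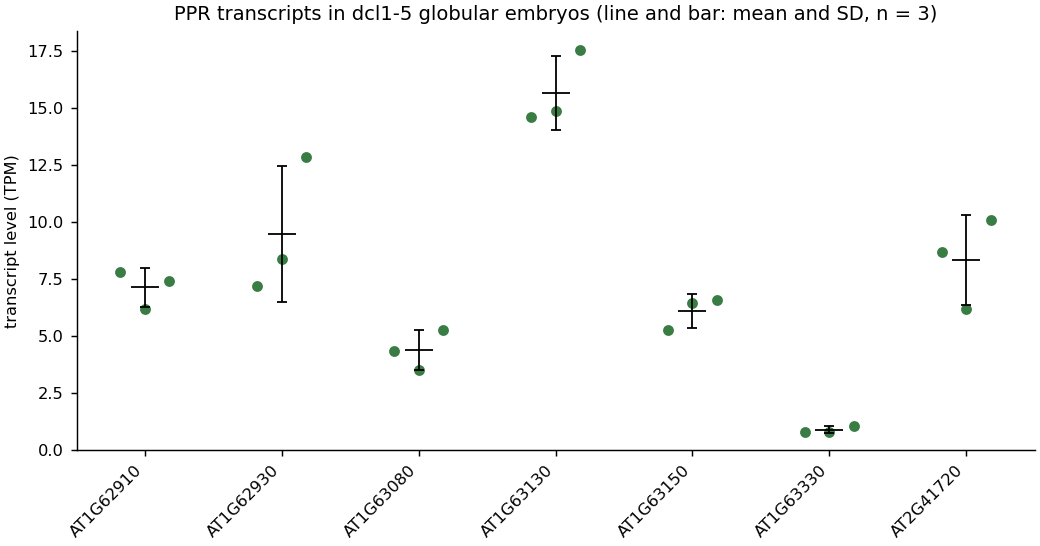
Transcript level of the 7 PPR genes in the 3 mRNA-seq libraries of dcl1-5 globular embryos, in TPM on a linear axis from 0; points are libraries, lines and bars the mean and SD. AT1G63130 is highest (14.6 to 17.5 TPM) and AT1G63330 lowest (0.808 to 1.07 TPM).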

How the data were processed

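For sRNA-seq, the authors trimmed reads with cutadapt, aligned them to TAIR10 with STAR allowing no mismatch, and used bedtools to count those that covered most of a mature miRNA on its strand, so that a read covering miR161.1 alone was not counted for miR161.2. They deposited an expected count per miRNA and read length, in which reads with several genomic matches were divided, and an RPM that scales it to genome-matching reads. In the nanoPARE data, capped features were masked and EndCut was run by the authors, who deposited for each predicted site the RPM at the cleavage position, an Allen score, a p-value adjusted within the library and a fold over background, the last not used here. For mRNA-seq, the authors ran kallisto and deposited TPM and an estimated count for each transcript. Tool versions are not given in the sources used here.

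Levels are sums of 20- to 24-base reads over the members of a family, and of TPM over the transcripts of a gene. log2(RPM + 1) was fitted with limma 3.58.1 (R 4.3.3) with an intensity trend, over families that averaged 10 RPM or more in a wild-type stage, or over sites above 0 in at least 3 of the libraries fitted. p-values were adjusted by Benjamini and Hochberg over all of them, with a threshold of 0.05. Separate fits were made for dcl1-5 against wild-type globular embryos, for xrn4-5 roots against shoots, and for the 24 wild-type libraries. edgeR 4.0.16 (quasi-likelihood test) and DESeq2 1.42.0 on rounded expected counts were alternatives, since RPM was the unit for which the tests had been set. Ratios and shares of read lengths were compared by permutation tests (100000 permutations or exact). Permutation tests were also run on summed site levels, but no p is given, since the sites were chosen with earlier results known. Other alternatives were a pseudocount of 0.1, other minimum levels, 21-base reads, scaling to all miRNA reads, the replicate block, stricter site definitions and leaving out replicates. Target windows were found by pairing in the RefSeq annotation of TAIR10.1, since site positions in the files follow an older transcript model. The steps were tested on simulated data with seeded changes. Python 3.11.15, numpy 2.4.6, pandas 2.3.3, scipy 1.17.1 and matplotlib 3.10.9 were used.

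Members and lists were chosen with earlier results of these data known. Named besides them were genes with a miR161 site significant in at least 2 replicates of a group, miR400, miR173, miR158, MIR161, DCL1, tissue markers and the 3 families most like each miRNA. Other names, namely miR845, PNM1, AT1G62500 and AT3G13340, were chosen after their values were seen.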

Additional observations from a re-analysis of the deposited data

How the results depend on the processing

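In dcl1-5 against wild-type globular embryos, the change of miR161.1 was -0.61 scaled to all miRNA reads and -0.46 in DESeq2, neither past the threshold, and the number of lower families was 9, and 13 in edgeR and 6 in DESeq2, in place of 40. These scalings remove a loss that most families share, so their values are relative to the other families. Under the other alternatives the change of miR161.1 was -7.29 to -6.69 as single libraries were left out. Families that varied over stages numbered 100 with a minimum of 1 RPM and 143 with none, against 54 with fewer families tested. Of the adjacent steps of miR161.1, 0 passed in DESeq2 and 1 to 2 as replicate numbers were left out. Steps that had not passed took the other sign in places: globular against preglobular was -0.19 in DESeq2, late against early heart -0.16 in edgeR, early torpedo against late heart -0.29 scaled to all miRNA reads, -0.071 in edgeR and -0.25 in DESeq2, late against early torpedo -0.15 scaled to all miRNA reads and -0.25 in edgeR, and bent cotyledon against late torpedo 0.18 in edgeR. Mature green against bent cotyledon was 0.37 in DESeq2. Leaving out replicate numbers gave -0.21 to 0.61, -0.084 to 0.14, -0.11 to 0.20 and -0.00289 to 0.44 for globular, early heart, early torpedo and late torpedo against the stage before. The range over stages of the 21-base share of miR161.1 was 2.90 to 3.99 percentage points. The cause of the shifts over wild-type stages was not tested.

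In dcl1-5, 3 PPR sites were called, and 37 sites in all were lower, when a site had to be above 0 in all 3 libraries of a group, where fewer sites were tested. These 3 sites were 0 in every dcl1-5 library and could pass this filter only through wild type, so their calls are no support. With the replicate number as a block, 2 PPR sites (limma, adjusted p = 0.0307) and 26 sites in all were called lower. The 2 were the miR161.2 sites of AT1G62910 and AT1G62930, whose levels are equal and so count as 1 measurement. They too were 0 in every dcl1-5 library and passed the filter only through wild type, so these calls are no support either. Same-numbered wild-type and dcl1-5 libraries had correlations of 0.268, 0.033 and 0.140 in sRNA-seq and -0.0009, 0.165 and -0.065 in nanoPARE, so the numbers were not treated as pairs. The block left the change of miR161.1 at -6.94 with 39 families lower. Sites that differed between xrn4-5 tissues numbered 12 (without root replicate 2) to 26 as libraries were left out. Over wild-type stages, 24 (without replicate 1) to 41 sites and 0 (without replicate 2) to 1 PPR sites were called. High-confidence miR161 sites numbered 6 with an adjusted p under 0.01 and 4 with all 3 replicates required. The median PPR transcript was 7.91 TPM over nuclear-encoded transcripts in place of 7.16. Of the recomputed values, 251 kept their direction and call, or stayed near the main count or, for levels, within the spread between replicates. Another 23 counts or levels moved beyond that, 8 values lost a call, 6 gained one and 13 took the other sign. The unknown depth of nanoPARE limits every statement on unlisted sites, and the few reads of miR161.2 limit those on early stages.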

Other observations

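Of 3 other transcripts listed with miR161 sites, AT1G62500 appeared late and the others at the stages of the PPR sites. The miR161.2 site of AT1G62500 was listed in 9 wild-type libraries, none before early torpedo, at 2.12, 2.34 and 4.38 RPM in bent cotyledon and 3.37, 3.28 and 2.10 RPM in mature green embryos. None of these listings was significant by the authors' test, and the stages are those in which the PPR sites were low or unlisted. The miR161.2 site of PNM1 (AT5G60960), a PPR protein of the mitochondria and nucleus, was listed in 11 wild-type libraries up to late torpedo, with 0.986, 0.603 and 0.315 RPM in late heart embryos, and was significant in none. The miR161.1 site of AT3G13340 was listed in 8 up to early torpedo, also with none significant, at 0.320, 0.234 and 0.553 RPM in early heart embryos.

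In the single libraries from known amounts of bent cotyledon RNA, miR161.1 was 13302 RPM with 50 ng, 7629 RPM with 5 ng, 4496 RPM with 1 ng and 5287 RPM with 0.5 ng. miR161.2 was 2.71 RPM with 50 ng and was not counted in the others, where 3 reads correspond to 0.661, 5.83 and 2.93 RPM. The 3 replicated bent cotyledon libraries, with 8.04 to 9.27 RPM of miR161.2, were thus above the 50 ng library. These single libraries have no spread between replicates.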
